A study of Mus musculus with 14 samples.

Results

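The C/EBP transcription factors, PU.1 and GFI1 direct how marrow progenitors become granulocytes or monocytes, and their transcripts were followed here in mouse lineage-negative bone marrow cells. The 8 genes are Cebpa, Cebpb, Cebpd, Cebpe, Cebpg, Cebpz, Spi1, which encodes PU.1, and Gfi1. They were taken by symbol, and all 8 were found among the 55367 gene symbols of each count table and passed the filter on low counts in both experiments. Messenger RNA was sequenced from wild-type cells grown in medium with SCF, IL6 and IL3, cytokines that support progenitors. The first experiment used cells that carried a pSMAL lentivirus with luciferase, the control (3 libraries), or with SETBP1-D868N, a leukemia-associated mutant of the nuclear protein SETBP1 (3 libraries). In the second experiment all cells carried SETBP1-D868N and received for 4 days either DMSO, the solvent (4 libraries), or 2.5 µM PF-9363, an inhibitor of MYST histone acetyltransferases (4 libraries). The labels name neither the promoter of the lentivirus nor the sex or age of the mice, and the second experiment has no group without SETBP1-D868N.

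C/EBP proteins bind DNA as pairs through a basic leucine zipper (bZIP). C/EBPα is needed to form granulocyte and monocyte progenitors, C/EBPε for the late granules of neutrophils, and C/EBPβ for granulocyte production under stress and for macrophages. C/EBPδ responds to inflammatory cytokines, and C/EBPγ pairs with other bZIP proteins but lacks an activation domain of its own. The product of Cebpz shares the name because it binds CCAAT boxes, but it has no bZIP domain. PU.1 is an ETS factor whose dose steers progenitors, with high levels favoring macrophages. GFI1 is a zinc finger repressor that works with the demethylase LSD1 and holds down monocyte genes in the granulocyte branch.

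Libraries held 60147266 to 68730322 counts each in experiment 1 and 7083731 to 10359093 each in experiment 2. Levels below are CPM, counts scaled to library total after correction by trimmed mean of M-values (TMM), and are given per library or as mean ± SD (n = 3 with luciferase or SETBP1-D868N, n = 4 with DMSO or PF-9363). Tests are edgeR's quasi-likelihood test with Benjamini-Hochberg adjustment over all genes tested. Genes are said to be called, or to have risen or fallen, where the adjusted p was below 0.05. The labels do not say whether libraries of a group came from separate mice or cultures. P-values thus measure the spread between libraries, which may be technical. Luciferase libraries 2 and 3 were alike, with a chi-square per degree of freedom of 2.27 between their counts. They differed more from luciferase library 1, at 27.1 and 27.6. Setbp1 had 5, 6 and 6 counts with luciferase and 23, 20 and 24 with SETBP1-D868N. In experiment 2, at lower depth, it had 2, 1, 0 and 0 counts with DMSO and 0 in each PF-9363 library, so these counts do not check the label of the transgene there. Whether the counting could capture transcripts of the introduced SETBP1 is not given in the sources used here. The 5 progenitor markers were all present with luciferase. Kit and Cd34 were at 180 ± 2.81 and 67.5 ± 2.33 CPM, and Myb, Cd48 and Flt3 at 196, 88.5 and 13.5. The 6 lymphocyte markers together reached at most 0.708 CPM in experiment 1 and 1.3 in experiment 2. Neutrophil markers were abundant, with 6 genes summing to 17131 to 17620 CPM with luciferase. Mast cell and basophil markers, also 6 genes, summed to 3835 to 4042 CPM with luciferase. In bulk RNA, fewer cells of a type and less RNA per cell cannot be told apart, and this applies to every change below.

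The genes lie apart in the genome except for Cebpa and Cebpg, which neighbor each other on chromosome 7. In GRCm38, the build named in the submitters' processing notes, Cebpa spans chr7:35119293-35121928 on the plus strand and Cebpg chr7:35046422-35056573 on the minus strand. Spi1 lies at chr2:91082390-91115756 and Cebpb at chr2:167688915-167690418, both on the plus strand. Gfi1 lies at chr5:107716657-107726036 (minus), Cebpe at chr14:54710360-54712174 (minus), Cebpd at chr16:15887286-15891031 (plus) and Cebpz at chr17:78919006-78937066 (minus). Cebpa, Cebpb and Cebpd each form a single merged exon in GENCODE M21. Exons of Cebpb share 312 bases with Tmem189, those of Cebpd 562 with Spidr, those of Cebpz 171 with Cebpzos, those of Gfi1 101 with A430072P03Rik and those of Cebpa 51 with Gm45091, all on the opposite strand. Cebpg shares 73 exon bases with Gm44836 on its own strand (at most 17 counts in any library) and 4 with Gm45095 on the opposite strand, which had 0 to 1 counts in experiment 1, 67 to 87 with DMSO and 110 to 186 with PF-9363. How the counting treated strand is not given in the sources used here, so reads in these stretches cannot be assigned with certainty. Counts of Gm45091 were 13 to 27 in experiment 1 and 80 to 204 in the less deeply sequenced libraries of experiment 2. Spi1 and Cebpe overlap no other gene.

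Promoter sequences from RefSeq (GRCm38.p6) were matched for 4 of the 8 genes, and the 250 bases before the start site are shown for Cebpa, Cebpb and Cebpg, since these related genes moved in different directions below. Capitals mark TTGCG, the core of a C/EBP site, in Cebpa (chr7:35119043-35119292, plus strand), TGACG, the core of a cyclic AMP response element, in Cebpb (chr2:167688665-167688914, plus strand), and CCAAT boxes in Cebpg (chr7:35056567-35056816, minus strand), each searched on both strands.
Cebpa: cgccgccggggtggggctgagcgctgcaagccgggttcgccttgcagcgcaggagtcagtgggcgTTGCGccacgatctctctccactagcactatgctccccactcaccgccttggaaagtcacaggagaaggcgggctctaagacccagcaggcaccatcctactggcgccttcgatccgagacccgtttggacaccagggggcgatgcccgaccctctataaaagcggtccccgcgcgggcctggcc
Cebpb: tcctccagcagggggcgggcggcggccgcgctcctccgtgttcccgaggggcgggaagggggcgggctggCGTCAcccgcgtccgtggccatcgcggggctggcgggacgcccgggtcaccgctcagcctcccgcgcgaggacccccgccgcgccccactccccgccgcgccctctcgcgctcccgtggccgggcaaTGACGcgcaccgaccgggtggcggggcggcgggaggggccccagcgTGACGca
Cebpg: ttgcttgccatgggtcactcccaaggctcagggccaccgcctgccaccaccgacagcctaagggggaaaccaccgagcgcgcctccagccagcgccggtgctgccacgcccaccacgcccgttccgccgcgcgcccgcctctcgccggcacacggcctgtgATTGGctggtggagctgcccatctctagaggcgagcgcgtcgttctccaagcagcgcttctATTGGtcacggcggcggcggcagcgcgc
The Cebpa window held 1 TTGCG, beginning at position −185 from the start site, and a TATAAA at −30. The Cebpb window held 3 matches to TGACG, at −180, −53 and −7, the first of them on the other strand. Both CCAAT boxes of Cebpg were on the other strand, at −89 and −28. Among 32851 promoter windows of the same length, TTGCG was found in 14.5%, TGACG in 17.8%, CCAAT in 33.8% and TATAAA in 12.4%. The PU.1 core GAGGAA, found in 23.3% of windows, was in none of the 3 shown, and the GFI1 core AATCAC (9.14%) had 1 match, in Cebpg at −92, where it overlaps a CCAAT box. The fuller C/EBP pattern TTNNGNAA (36.8%) and the C/EBP-ATF pattern TGATGNAA (3.45%) were not in these 3 windows. The 2 windows of Gfi1 are not printed. A match describes letters and not binding.

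SETBP1-D868N and luciferase cells were compared to see which regulators differ when the mutant is present. Cebpa, Gfi1 and Cebpz rose, and Cebpb, Cebpd, Cebpe and Spi1 fell, so 7 of the 8 genes were called, 3 higher and 4 lower. Among all 15794 genes tested, 47.2% were called, 24.5% higher and 22.7% lower. The changes were modest, from 1.12-fold for Cebpb to 1.43-fold for Cebpa. In all 8 genes the groups did not overlap, as was the case for 56.7% of all genes.

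Cebpa, the early granulocyte and monocyte factor, had 257, 257 and 259 CPM in the luciferase libraries and 380, 352 and 374 with SETBP1-D868N. Every mutant library lay above every control, and the control values differed by little. The mean went from 258 ± 1.42 to 369 ± 14.8 CPM, with a log2 change of 0.52 (SE 0.030, adjusted p 1.09e-07 by edgeR). Gfi1, the repressor of monocyte genes, had 86.3, 92.9 and 87.5 CPM with luciferase and 114, 113 and 104 with SETBP1-D868N, again without overlap. Its log2 change was 0.31 (SE 0.041, adjusted p 8.53e-05 by edgeR). Cebpz, the family's namesake without a bZIP domain, had 78.5, 78.1 and 74.8 CPM and then 91.1, 94.8 and 96.4, with a log2 change of 0.29 (SE 0.032, adjusted p 1.79e-05 by edgeR).

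Cebpe, the factor of late neutrophil granules, moved against Cebpa, with 129, 128 and 124 CPM in the controls and 104, 98.1 and 100 with the mutant. Its log2 change was −0.33 (SE 0.031, adjusted p 3.87e-06 by edgeR). Cebpd fell by a similar amount, from 69.0, 71.6 and 72.5 CPM to 60.1, 57.0 and 53.8, with a log2 change of −0.32 (SE 0.041, adjusted p 4.64e-05 by edgeR). Spi1 (PU.1) was at 355, 352 and 352 CPM with luciferase and 295, 296 and 288 with SETBP1-D868N, tight values in both groups. Its log2 change was −0.27 (SE 0.024, adjusted p 2.35e-06 by edgeR). Cebpb had the smallest called change, from 191, 209 and 199 CPM to 179, 175 and 181, with a log2 change of −0.16 (SE 0.034, adjusted p 0.00162 by edgeR). Cebpg was not called, with 80.4, 82.8 and 84.3 CPM against 89.0, 84.9 and 85.2 (log2 fold change 0.067, 95% interval −0.0018 to 0.14, edgeR adjusted p 0.102). Scaling by library size alone made Cebpg a higher call, at 0.12 (adjusted p 0.0107).

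**Figure D1:**
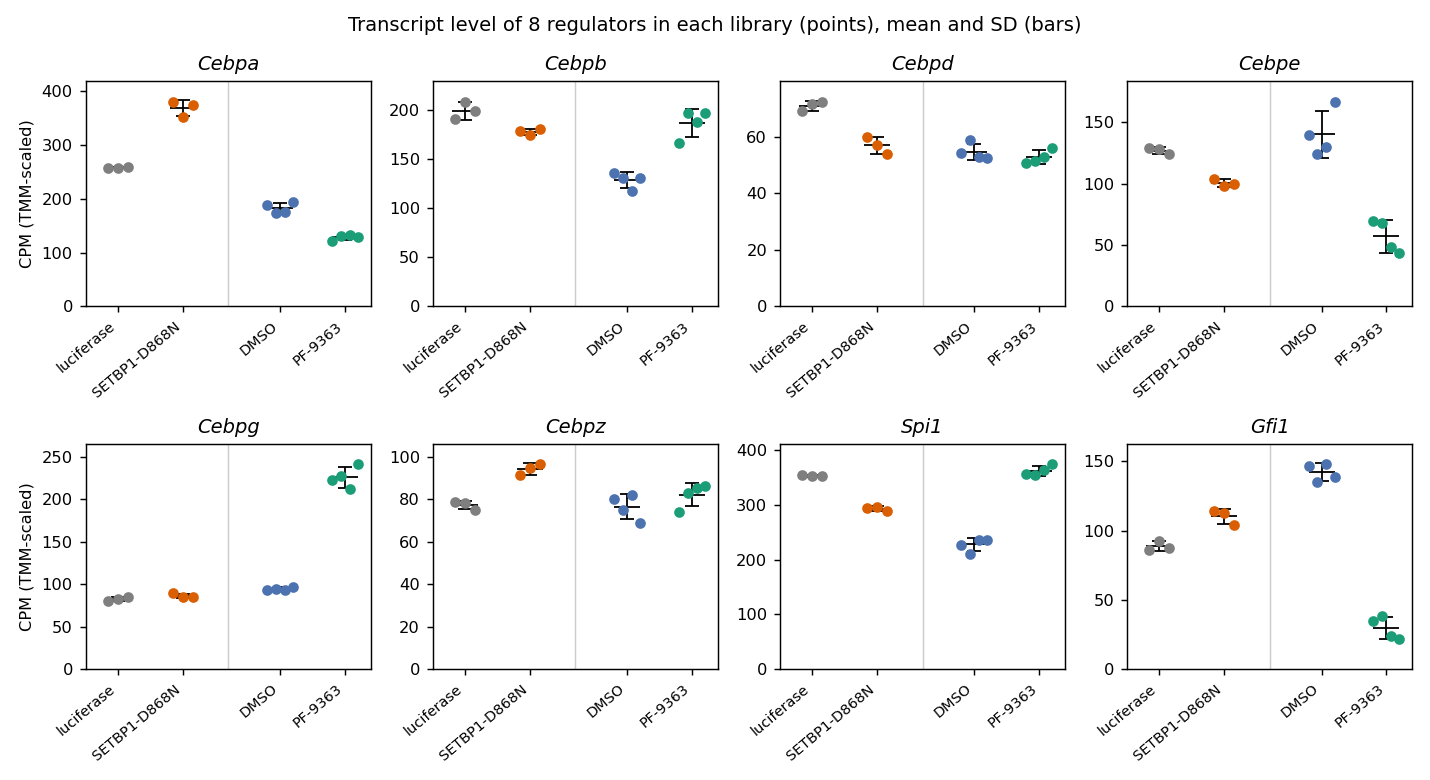
CPM of each of the 8 genes on a linear axis from 0, with 1 point per library in the luciferase, SETBP1-D868N, DMSO and PF-9363 groups and bars for mean ± SD (n = 3 and 4). The grey line separates the experiments, which were scaled separately. In experiment 2, Gfi1 stands at 135 to 148 CPM with DMSO and at 21.9 to 38.2 with PF-9363. Cebpg stands at 92.5 to 97.1 CPM with DMSO and at 212 to 241 with PF-9363.

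PF-9363 and DMSO cells were compared to see what MYST inhibition does to the regulators in cells with the mutant. Gfi1, Cebpe and Cebpa fell, and Cebpg, Spi1 and Cebpb rose, so 6 of the 8 genes were called, 3 in each direction. Among all 13456 genes tested, 76.0% were called, 36.6% higher and 39.4% lower, which is near the share called here. Folds ran from 1.43 for Cebpa to 4.79 for Gfi1. In 6 of the 8 genes, those called, the groups did not overlap, as was the case for 70.3% of all genes, called or not. With scaling by library size alone the median gene moved by −0.23 on the log2 scale (0.049 in experiment 1), and changes are relative to the scaling.

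Gfi1 changed most, from 147, 135, 148 and 139 CPM with DMSO to 34.5, 38.2, 24.1 and 21.9 with PF-9363. The treated libraries were all far below the controls, and libraries 3 and 4 were lower than 1 and 2. The mean went from 143 ± 6.45 to 29.7 ± 7.88 CPM, with a log2 change of −2.26 (SE 0.15, adjusted p 1.62e-07 by edgeR). Cebpe went from 140, 124, 130 and 167 CPM to 69.8, 67.8, 48.1 and 43.5, again with treated libraries 3 and 4 below 1 and 2, and with a wider spread in the controls. Its log2 change was −1.29 (SE 0.18, adjusted p 3.17e-04 by edgeR). Cebpa went from 189, 174, 175 and 193 CPM to 121, 131, 132 and 128, where the treated libraries lay close together. Its log2 change was −0.52 (SE 0.062, adjusted p 1.65e-08 by edgeR).

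Cebpg, the partner without an activation domain, rose from 92.6, 94.3, 92.5 and 97.1 CPM to 222, 227, 212 and 241. Both groups were tight and far apart, with a log2 change of 1.26 (SE 0.062, adjusted p 6.15e-17 by edgeR). Spi1 rose from 227, 211, 236 and 236 CPM to 356, 354, 363 and 374, with a log2 change of 0.67 (SE 0.059, adjusted p 3.05e-11 by edgeR). Cebpb rose from 136, 131, 118 and 131 CPM to 167, 197, 188 and 197, with a log2 change of 0.53 (SE 0.066, adjusted p 2.95e-08 by edgeR). Under library-size scaling the increase of Cebpb was smaller, at 0.30 (adjusted p 1.43e-04), and that of Spi1 was 0.44 (adjusted p 6.22e-08), both still called.

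Cebpd and Cebpz were not called with PF-9363. Cebpd had 54.2, 58.9, 53.0 and 52.6 CPM with DMSO and 50.7, 51.3, 52.8 and 56.2 with PF-9363, overlapping ranges with a log2 change of −0.052 (95% interval −0.21 to 0.11, edgeR adjusted p 0.549). Library-size scaling made Cebpd a lower call at −0.28 (adjusted p 0.00183). Cebpz had 80.0, 74.9, 81.8 and 68.7 CPM and then 74.0, 83.0, 85.3 and 86.2, with a log2 change of 0.10 (95% interval −0.048 to 0.26, edgeR adjusted p 0.206), which became −0.13 under library-size scaling.

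**Figure D2:**
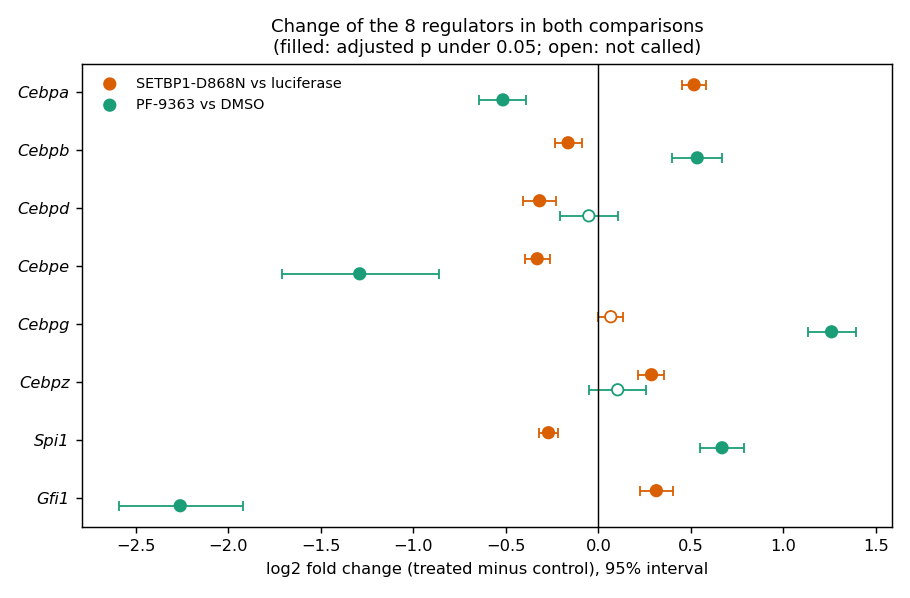
Log2 fold change of each gene (x axis) with its 95% interval, for SETBP1-D868N against luciferase (orange) and PF-9363 against DMSO (green); filled points are called, open points are not. Cebpa, Cebpb, Spi1 and Gfi1 lie on opposite sides of 0 in the comparisons, whereas Cebpe is below 0 in both, at −0.33 and −1.29.

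The comparisons share no library, and their values can be set side by side. Cebpa (0.52 and −0.52) and Gfi1 (0.31 and −2.26) were higher with the mutant and lower with the inhibitor. Spi1 (−0.27 and 0.67) and Cebpb (−0.16 and 0.53) were lower with the mutant and higher with the inhibitor. Cebpe was lower in both (−0.33 and −1.29). Cebpg was called with PF-9363 only, and Cebpd and Cebpz with SETBP1-D868N only, but these differences between comparisons were not tested. Input RNA (500 ng, then 100 ng) and library preparation differed between the experiments, so no test was made across them.

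Divided by the length of the merged exons, levels can be compared roughly between genes. Reads in stretches shared with other genes cannot be assigned with certainty. These hold 312 of the 1504 exon bases of Cebpb and 562 of the 3746 of Cebpd. With luciferase, Cebpb led at 133 ± 6.12 CPM per kb, followed by Spi1 at 131 ± 0.649, whose range overlapped that of Cebpb. Cebpe at 102 ± 2.12 and Cebpa at 97.8 ± 0.539 came next, ahead of Gfi1 at 27.9 ± 1.11, and Cebpd, Cebpz and Cebpg closed the order at 19.0, 16.6 and 14.7. With SETBP1-D868N, Cebpa moved to the top at 140 ± 5.61 CPM per kb, above Cebpb at 119 ± 2.00 and Spi1 at 109 ± 1.61, and only Cebpg and Cebpd at the low end overlapped. With DMSO, Cebpe led at 113 ± 15.2, Cebpb (85.8 ± 5.09) and Spi1 (84.5 ± 4.31) overlapped, and Cebpa followed at 69.3 ± 3.68 and Gfi1 at 44.7 ± 2.02. Cebpg, Cebpz and Cebpd formed a low group at 16.7, 16.4 and 14.6. With PF-9363, Spi1 at 134 ± 3.4 and Cebpb at 124 ± 9.18 stood well above Cebpa (48.5 ± 1.76), Cebpe (46.2 ± 10.8) and Cebpg (40.1 ± 2.11), whose neighboring ranges overlapped. Cebpz (17.6) and Cebpd (14.1) came next, and Gfi1 was last at 9.31 ± 2.47. By the length of the longest transcript, Spi1 instead led with both luciferase and SETBP1-D868N, above Cebpa and Cebpb. The move of Cebpa to the top with SETBP1-D868N thus depends on the lengths used, and 9 of the 32 ranks over the 4 groups changed.

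Of the 8 genes, 5 encode bZIP C/EBP proteins, and their transcripts were summed. Ddit3, a bZIP C/EBP relative outside the 8 genes, was left out. It had 13.5 CPM with luciferase, 12.8 with SETBP1-D868N, 19.7 with DMSO and 171 with PF-9363. The sum of the 5 was 366 ± 6.28 CPM per kb with luciferase and 370 ± 9.79 with SETBP1-D868N, while their shares shifted. Cebpa made up 26.7% ± 0.515 of the sum with luciferase and 37.8% ± 0.542 with SETBP1-D868N. Cebpe went from 27.9% ± 0.767 to 21.9% ± 0.249 and Cebpb from 36.2% ± 1.06 to 32.0% ± 0.583. In the second experiment the sum was 299 ± 20.8 with DMSO and 273 ± 10.9 with PF-9363, values whose ranges overlapped (281 to 326 and 265 to 289). Cebpe went from 37.6% ± 2.62 of that sum to 16.9% ± 3.79 and Cebpa from 23.2% ± 0.522 to 17.8% ± 0.775. Cebpb took 28.7% ± 1.69 and then 45.5% ± 2.77, and Cebpg 5.61% ± 0.310 and then 14.7% ± 0.791. With TMM scaling the sums of these 5 were thus close within each experiment. Among them, Cebpa gained share with the mutant and Cebpb and Cebpg with the inhibitor. The shares do not depend on the scaling between libraries, but the sums do. TMM factors were 1.07 to 1.09 with DMSO and 0.905 to 0.940 with PF-9363, so on library size alone the sums of experiment 2 lie further apart. Sums and shares both depend on the lengths used, and they are given as a description.

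**Figure D3:**
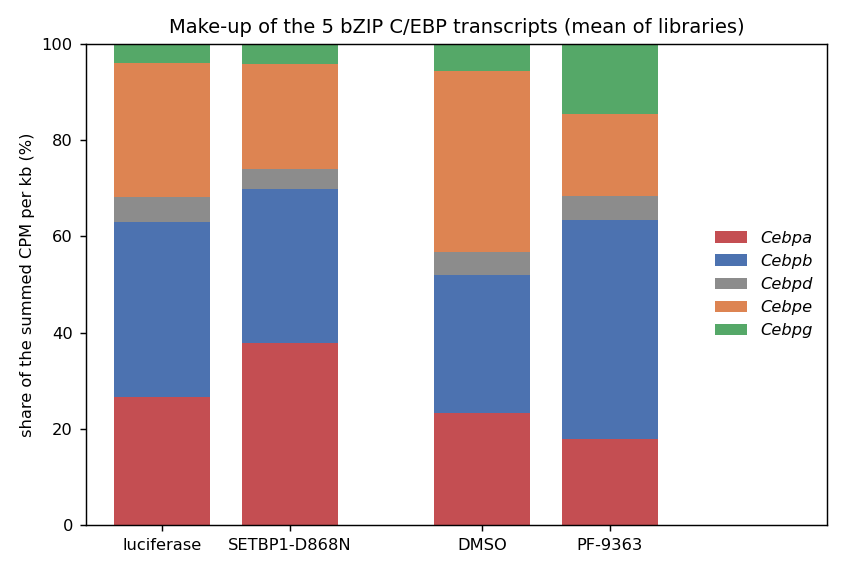
Stacked bars from 0 to 100% show the mean share of each of 5 bZIP C/EBP transcripts in their summed CPM per kb, per group. Groups had n = 3, 3, 4 and 4 libraries, and Ddit3 was left out. Of the 5, Cebpa is largest with SETBP1-D868N (37.8%), Cebpe with DMSO (37.6%) and Cebpb with PF-9363 (45.5%).

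Ratios of counts within a library do not depend on scaling at all. For Cebpa over Spi1, a pair known to act together in progenitors, the count ratio was 0.724, 0.729 and 0.737 in the luciferase libraries and 1.29, 1.19 and 1.3 with SETBP1-D868N. In experiment 2, where all cells carried SETBP1-D868N, it was 0.832, 0.823, 0.742 and 0.816 with DMSO and 0.342, 0.369, 0.364 and 0.341 with PF-9363. The ratio was thus 1.72-fold higher with the mutant and 2.27-fold lower with the inhibitor. Gfi1 over Spi1, which oppose each other in the choice between granulocyte and monocyte, went from 0.243, 0.264 and 0.249 to 0.387, 0.382 and 0.361 with the mutant. In experiment 2 it went from 0.648, 0.640, 0.630 and 0.589 to 0.0970, 0.108, 0.0665 and 0.0586. These were a 1.5-fold higher ratio and a 7.83-fold lower ratio.

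Among the C/EBP genes, Cebpe over Cebpa was lower in both experiments, 1.80-fold with SETBP1-D868N and 1.74-fold with PF-9363. Cebpb over Cebpa was 1.6-fold lower with SETBP1-D868N and 2.07-fold higher with PF-9363, going from 0.676 to 0.753 in the DMSO libraries to 1.38 to 1.54 in the treated ones. Cebpg over Cebpa was 1.37-fold lower with the mutant and 3.41-fold higher with the inhibitor, where all 4 treated libraries held more Cebpg than Cebpa counts. Cebpd over Cebpa was 1.78-fold lower and then 1.38-fold higher. In all 12 tests the groups did not overlap. Single genes did not overlap in 56.7% of cases in experiment 1 and 70.3% in experiment 2. The share for other pairs of genes was not computed. All ratios but Gfi1 over Spi1 contain Cebpa, so the 12 tests are not independent. The two-sided exact permutation p was 0.10 for each ratio in experiment 1 and 0.0286 in experiment 2, the smallest that 3 against 3 and 4 against 4 libraries can give. Adjusted over the 12 tests they became 0.10 and 0.0571, so none passed 0.05 in this exact permutation test.

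**Figure D4:**
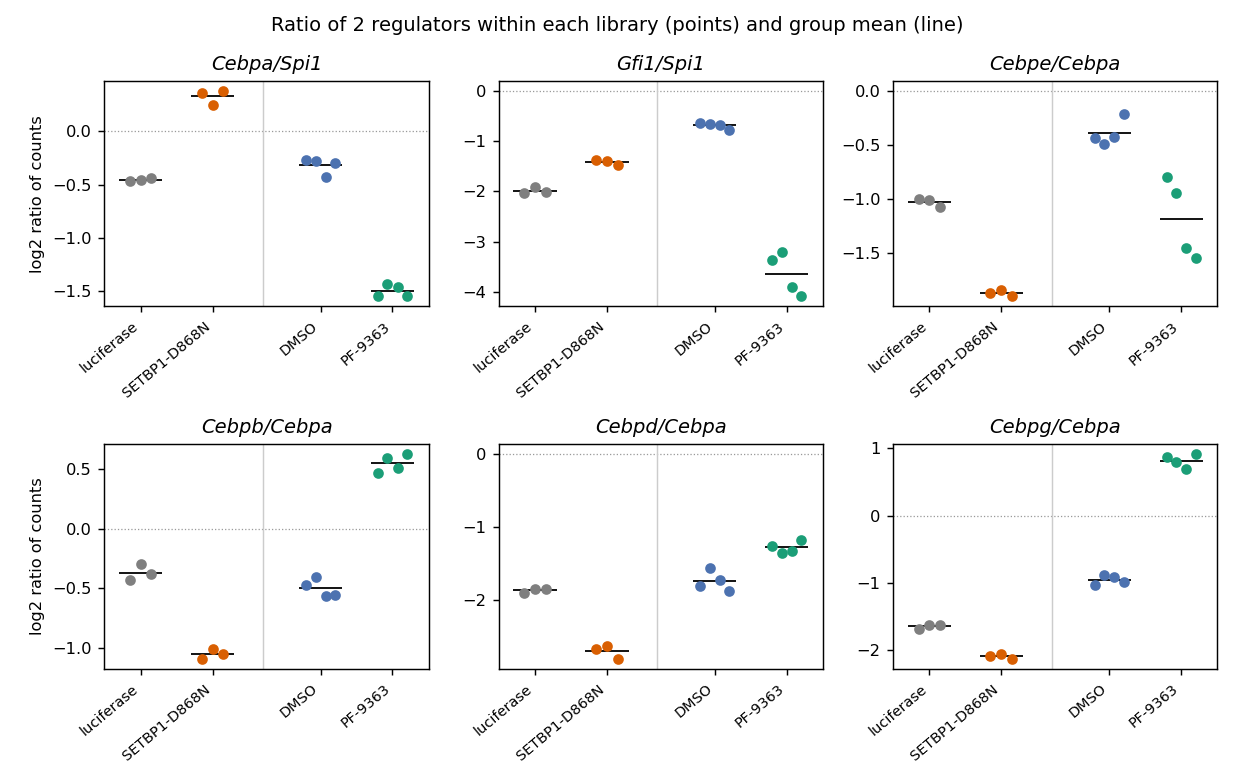
Log2 ratio of counts (0.5 added to each) for 6 pairs of genes, 1 point per library and a line at the group mean, with a dotted line where both genes have equal counts. Cebpa/Spi1 lies above 0 only in the 3 SETBP1-D868N libraries of experiment 1, and Cebpb/Cebpa and Cebpg/Cebpa only in the 4 PF-9363 libraries. The DMSO libraries, whose cells also carried SETBP1-D868N, lie below 0 for Cebpa/Spi1 (−0.430 to −0.265).

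Partners and regulators of C/EBP proteins were taken as a list of 12 genes, of which 2 rose and 7 fell with SETBP1-D868N (median log2 fold change −0.17, against 0.0043 over all genes). Under library-size scaling 4 fell. For this list and those below, the shares over all genes were 24.5% higher and 22.7% lower with SETBP1-D868N. With PF-9363 these shares were 36.6% higher and 39.4% lower. The stress factors Atf5 (0.19) and Atf4 (0.13) rose, and the bZIP genes Atf3 (−0.66) and Batf3 (−0.55) fell most. With PF-9363, 10 of the 12 rose and 1 fell (median 1.51, against −0.038 over all genes). Atf3 went from 10.2 ± 1.11 to 98.7 ± 12.1 CPM and Ddit3, the C/EBP relative CHOP that blocks the binding of its partners, from 19.7 ± 2.68 to 171 ± 8.48. Their log2 fold changes were 3.28 (SE 0.10, adjusted p 2.87e-21 by edgeR) and 3.11 (SE 0.084, adjusted p 8.17e-23 by edgeR). Trib2, an adaptor for the breakdown of C/EBPα, fell (−1.36), whereas its relatives Trib1 (1.87) and Trib3 (3.10) rose; these relatives were chosen after their values were seen. Batf2 was not called, at 0.018.

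Granulocyte genes linked to C/EBP factors moved in both directions, and with PF-9363 they were called about as often as all genes (76.0%). Of 15 genes, 5 rose and 10 fell with SETBP1-D868N (median −0.60). The 5 that rose were the promyelocyte genes Ctsg (0.60), Mpo (0.40), Ms4a3 (0.34), Elane (0.34) and Prtn3 (0.29). The 10 that fell were the receptors Csf3r (−0.53) and Il6ra (−0.48) and the late granule and calprotectin genes Camp (−0.86), S100a8 (−0.81), Ltf, Lcn2, Ngp, Mmp8, Cd177 and S100a9. With PF-9363, 6 rose and 6 fell (median −0.0087, which was above 0 without DMSO library 4, at 0.064, or PF-9363 library 3 or 4, at 0.044 and 0.034, and was −0.236 under library-size scaling). The same 5 promyelocyte genes fell, led by Elane (1453 ± 70.5 to 1.75 ± 1.49 CPM, log2 fold change −9.66) and Mpo (−8.49), together with Camp (−2.15). Lcn2 (2.51), Csf3r (2.00), Il6ra (1.99), Mmp8 (1.86), Ltf (1.11) and Cd177 (0.26) rose, and Ngp, S100a8 and S100a9 were not called. Csf3r, the receptor of the granulocyte growth factor, thus had 81.5 ± 1.82 CPM with DMSO and 326 ± 27.3 with PF-9363 in the samples where Cebpa and Cebpe were lower. Genes named here beyond the top 2 per direction were chosen after their values were seen.

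Of 16 partners and ETS relatives of PU.1, 3 rose and 9 fell with SETBP1-D868N (median −0.19), or 5 higher under library-size scaling. Elf1 (0.24) and Gata2 (0.21) rose, and the PU.1 relative Spib (21.0 ± 2.03 to 10.8 ± 1.02 CPM, −0.96) and the AP-1 gene Jun (−0.85) fell most. With PF-9363, 15 were tested, 11 rose and 2 fell (median 1.57). Klf4 (3.62), a factor of monocyte development, rose most, and Ets1 (−0.31) and Fli1 (−0.20) fell. Without PF-9363 library 4, 1 was called lower.

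The list of 14 PU.1-linked myeloid genes had 0 members higher and 12 lower with SETBP1-D868N (median −0.46) and 14 higher and 0 lower with PF-9363 (median 1.68). Both counts of 0 were also 0 at an unadjusted p under 0.05 in edgeR, and with DESeq2 and limma-voom, but 1 was called higher and 10 lower with SETBP1-D868N under library-size scaling. Tlr2 (−0.83) and Ctss (−0.75), a receptor for bacterial lipoproteins and a lysosomal protease, fell most with the mutant. With PF-9363, Fcgr1, the high-affinity antibody receptor, went from 0.798 ± 0.247 to 25.8 ± 3.75 CPM (log2 fold change 5.0) and Tlr2 from 12 ± 2.84 to 173 ± 17.6 (3.85). Monocyte and macrophage markers, of which Csf1r and Cd68 are also in the PU.1-linked list, moved with Spi1 in both experiments. Their 6 genes summed to 816 to 851 CPM with luciferase and 493 to 523 with SETBP1-D868N, and to 396 to 488 with DMSO and 2918 to 3513 with PF-9363. Mast cell and basophil markers summed to 3835 to 4042 and 3296 to 3489 in experiment 1, and to 909 to 1170 and 3936 to 4906 in experiment 2. Of these 6 markers, 2 were called higher (Mcpt8 and Ms4a2) and 4 lower with SETBP1-D868N, and 5 higher and 0 lower with PF-9363. The part of such cells in the changes of Spi1 and Cebpb was not tested.

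Neutrophil markers, of which S100a8, S100a9, Camp and Ngp are also in the granulocyte list, moved with Cebpe in the first experiment but not in the second. Their 6 genes summed to 17131 to 17620 CPM with luciferase and 9184 to 11285 with SETBP1-D868N, all 6 called lower. With DMSO they summed to 12567 to 15638 and with PF-9363 to 13569 to 15069, with 1 called higher and 1 lower. Progenitor markers summed to 536 to 555 CPM with luciferase and 643 to 677 with SETBP1-D868N, and to 421 to 457 with DMSO and 318 to 341 with PF-9363. Of the 5 markers, 3 were called higher and 2 lower with SETBP1-D868N, and 2 higher and 2 lower with PF-9363. Myb, which keeps progenitors immature, went from 196 to 347 CPM with the mutant and from 314 to 47.7 with the inhibitor. Kit went against Myb, from 180 to 115 and from 69.8 to 191. Of the 6 mast cell and basophil markers, 4 fell with SETBP1-D868N as Kit did and 2 rose, and 5 rose with PF-9363 as Kit did. Which cells the Kit RNA came from was not tested. The part of neutrophils and progenitors in the changes of Cebpa, Cebpe and Gfi1 was not tested either.

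Gfi1 cofactors and relatives were called about as often as all genes in both comparisons. Of 10 genes, 5 rose and 0 fell with SETBP1-D868N (median 0.087), led by the paralog Gfi1b (13.8 to 20.4 CPM, 0.56) and Prmt1 (0.33). At an unadjusted p under 0.05 in edgeR 1 was lower, DESeq2 and limma-voom called 0 lower, and 1 was called lower without SETBP1-D868N library 3 and with RLE size factors. With PF-9363, 1 rose and 7 fell (median −0.57), led by the deacetylase gene Hdac2 (88.4 ± 4.42 to 40.2 ± 2.68 CPM, −1.14) and Prmt1 (−0.69). The gene that rose was Gfi1b (1.21), which was named after its value was seen and had only 1.40 and 3.22 CPM. Without DMSO library 4, 2 were called higher.

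Genes known to be repressed by GFI1 moved in both directions. Of 9 genes, 3 rose and 4 fell with SETBP1-D868N (median −0.035), and 4 rose and 2 fell with PF-9363 (median 0.096). Among all genes, 47.2% were called in either direction with SETBP1-D868N and 76.0% with PF-9363. The sign of both medians changed under library-size scaling, to 0.014 and −0.13, and 4 rather than 2 were then called lower with PF-9363. The macrophage growth factor gene Csf1 fell with the mutant (122 to 73.5 CPM, −0.73), when Gfi1 was higher, and rose with PF-9363 (41.5 ± 2.28 to 373 ± 39.8 CPM, 3.17), when Gfi1 was lower. Egr2 did likewise, at −0.62 and 1.99. Hoxa9 went the other way, rising with the mutant (4.03) and falling with PF-9363 (−3.37), as Gfi1 did. Meis1 rose with the mutant (1.09), and Id1 fell with PF-9363 (−1.03).

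**Figure D5:**
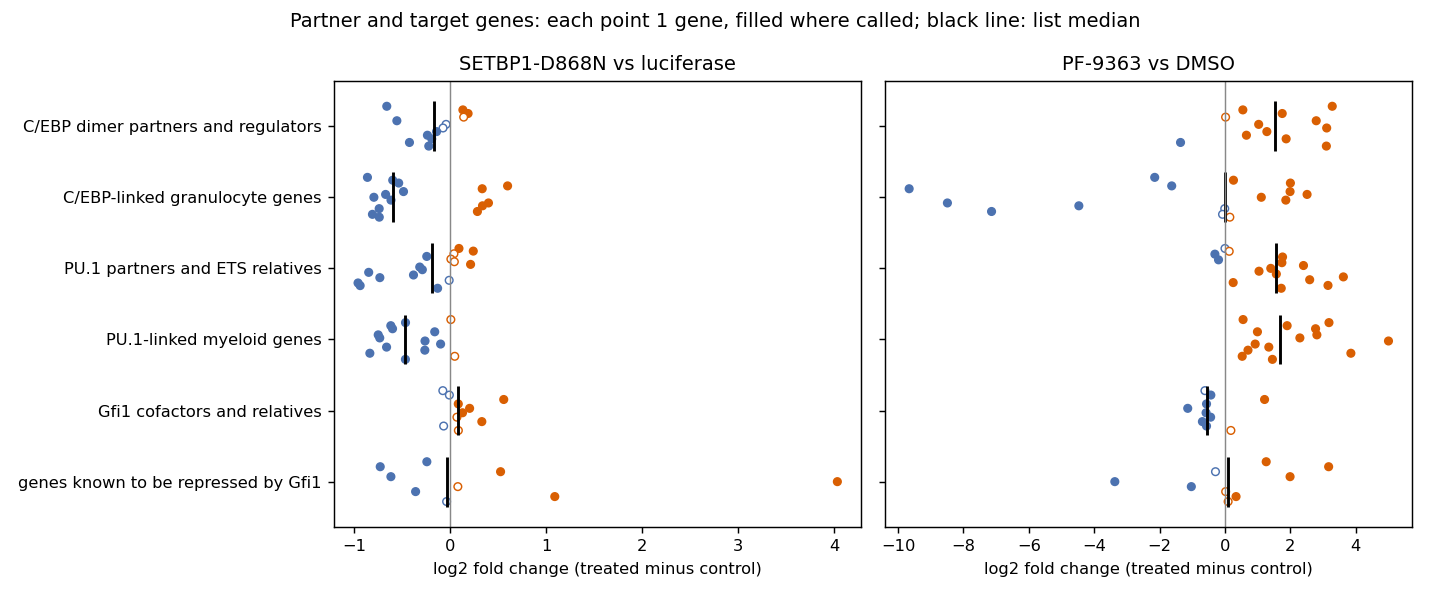
Log2 fold change of every tested gene in the 6 lists (1 point per gene, filled where called, orange above 0 and blue below) with a black line at the list median, for each comparison; the x axes differ in range. PU.1-linked genes lie mostly below 0 with SETBP1-D868N (median −0.46) and wholly above 0 with PF-9363 (median 1.68), and the granulocyte genes spread to both sides.

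Genes with a pattern most like each of the 8 were ranked by the root mean square difference in log2(CPM + 1), centred on each experiment's mean, over all 14 libraries and 10393 other genes. Nearest to Gfi1 were Wee1 (0.085), Suv39h1 (0.091) and Rpa2 (0.093). Nearest to Cebpa were Nol9 (0.046), Vcpkmt (0.051) and Nomo1 (0.068), and nearest to Cebpe Tjp3 (0.11), Myo18b (0.12) and Zranb3 (0.13). Spi1 was closest to Ppp1r18 (0.038), Tcn2 (0.044) and Lrrfip2 (0.045). Cebpb was closest to Apbb1ip (0.049), Casp9 (0.054) and Pik3cd (0.056). The nearest genes to Cebpg were Ctsc (0.050), Ghitm (0.055) and Lamp1 (0.055), to Cebpd Eif2ak3 (0.064), Dennd5a (0.066) and Micall1 (0.068), and to Cebpz Syncrip (0.048), Heatr3 (0.050) and Imp4 (0.060). Ranking by Pearson correlation kept 2 of the 3 genes for Cebpa, Cebpg and Cebpz, 1 for Cebpb, Cebpd, Cebpe and Spi1, and 0 for Gfi1.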

How the data were processed

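For each experiment the authors deposited a table of raw read counts by gene symbol, and the labels name 1 column for each of the 14 libraries. The submitters' processing notes name STAR, DESeq2 and the builds GRCm38 and mm10, with no role or version. The counting program, annotation and strand handling are not given in the sources used here. No column was left unmapped.

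From the counts, each experiment was fitted separately with edgeR 4.0.16 in R 4.3.3 (filterByExpr on the group, minimum count 10 and minimum total 15, TMM scaling, glmQLFit with robust estimation, glmQLFTest, the group as the only factor), leaving 15794 and 13456 genes. P-values were adjusted over all genes tested. Standard errors are the absolute log2 fold change over the square root of F, and intervals are 95%. Ratios used 0.5 added to each count and a two-sided exact permutation test. Lengths, positions and overlaps came from GENCODE M21 (GRCm38).

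The 8 genes and the 6 lists were chosen with earlier results of these data known. Named list genes were the 2 per direction with the largest called change and at least 5 CPM in the higher group. A gene that this rule names is not reported here. For each of the 8 genes, the 3 nearest genes were named. Depth, 60147266 to 68730322 and 7083731 to 10359093 counts, left at least 155 counts for each of the 8 genes in every library. Alternatives were other scalings and filters, DESeq2 1.42.0, limma-voom (limma 3.58.1), no robust estimation, the replicate block, 5 added counts, other lengths, correlation as the measure of likeness, and leaving out each library.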

Additional observations from a re-analysis of the deposited data

Results flagged for a closer look

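The count ratio of Cebpa to Spi1 had a library that stood apart from the others of its group. In DMSO library 3 the log2 ratio was −0.430, while DMSO libraries 1, 2 and 4 were at −0.265, −0.281 and −0.293. The gap to the nearest library made up 0.833 of the group's range, above the 95% limit of Dixon's test for 4 samples. It was the only such value among 28 groups of 4 libraries examined, and chance alone gives about 1 in 20. Leaving out each library in turn gave differences between PF-9363 and DMSO of −1.22 to −1.17.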

How the results depend on the processing

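Every called change of the 8 genes kept its direction and its call under all alternatives run. Without TMM, on library size alone, Cebpz with PF-9363 reversed from 0.10 to −0.13, not called either way, and 2 calls were gained, Cebpg with SETBP1-D868N (0.12) and Cebpd with PF-9363 (−0.28). The numbers of the 8 genes called stayed at 3 higher and 4 lower, and at 3 and 3, when any library was left out. For genes of the 6 lists, leaving out a library gave 17 to 19 higher and 39 to 41 lower with SETBP1-D868N (18 and 42 with all libraries), and 45 to 47 and 17 to 19 with PF-9363 (46 and 18). The median of the GFI1-repressed list reversed on library size alone, to 0.014 and −0.13. On the same scaling, 4 rather than 7 C/EBP partners were called lower and 5 rather than 3 PU.1 partners and 1 rather than 0 PU.1-linked genes higher with SETBP1-D868N, and 4 rather than 2 GFI1-repressed genes lower with PF-9363. The granulocyte list's median with PF-9363 (−0.0087) became −0.236 on library size alone, 0.017 with RLE size factors and 0.017 with DESeq2, 0.064 without DMSO 4, and 0.044 and 0.034 without PF-9363 3 and 4, within a leave-one-out range of −0.0604 to 0.0643. The cause was not tested. All 12 ratios kept their direction, with leave-one-out ranges in the second experiment from −3.11 to −2.82 for Gfi1/Spi1 and 1.74 to 1.81 for Cebpg/Cebpa.

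Libraries with the same replicate number did not deviate together. Correlations were −0.377, −0.0121 and −0.368 for luciferase with SETBP1-D868N, and −0.0514 to 0.049 for DMSO with PF-9363. In experiment 1, libraries with different numbers ran from −0.339 (luciferase 2 with SETBP1-D868N 3) to 0.461 (luciferase 1 with SETBP1-D868N 3). Deviations were taken from group means and are linked within each group, so these correlations cannot settle which libraries were paired. With the replicate block, 3 of the 8 genes were called higher and 4 lower with SETBP1-D868N, and 3 and 3 with PF-9363. Genes of the lists called were then 17 higher and 39 lower, and 47 and 19.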
